A study of Mus musculus with 6 samples.

Results

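Fibro-adipogenic progenitors are the mesenchymal cells that lie between muscle fibres. They support satellite cells after injury, and in dystrophic muscle they are a known source of fibroblasts, matrix-producing myofibroblasts and fat cells. They are recognised by the PDGF receptor alpha and the surface proteins Sca-1 and CD34, while smooth muscle actin marks cells that have become contractile. Described here are 10 genes that mark these cells: Pdgfra, Pdgfrb, Ly6a, Cd34, Thy1, Tcf7l2, Osr1, Fap, Dpt and Acta2. Members were found by gene symbol, and 9 of the 10 were paired with at least 1 probe set, giving 17 of the 45101 probe sets on the array and 9 of its 18193 named genes. The table of probe sets used here pairs none with Ly6a, the gene of Sca-1, which was not analysed here.

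The samples were hind limb skeletal muscle of 3 mice deficient in the laminin alpha 2 chain and of 3 wild type mice, all 4 weeks old. The laminin alpha 2 chain is a subunit of the laminin that ties muscle fibres to their basement membrane, and its loss causes a congenital muscular dystrophy. The labels name no allele, strain or sex, and say that the muscle of each mouse was isolated on its own. Values are linear signal in array units. A log2 fold change is the mean of log2(signal + 16) in deficient libraries minus that in wild type libraries, and the added 16 shrinks it for genes of low signal.

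The deposited arrays share a scale, with array medians from 20.0 to 26.1 in deficient libraries and from 21.5 to 24.5 in wild type libraries. Precision is limited by the small number of arrays. Lama2, the targeted gene, was lower in all 3 deficient libraries (82.0, 31.1 and 140.4) than in the wild type libraries (428.7, 415.6 and 326.2; limma adjusted p = 0.0207). Summed over 9 genes of skeletal muscle fibres, such as Ckm and Acta1, the signal was 84892.6 to 112435.5 in deficient and 114776.9 to 119682.5 in wild type libraries. Some libraries stood apart before any comparison. Y-linked Eif2s3y read 414.6 and 573.7 in deficient replicates 1 and 2 and 9.1 in deficient replicate 3, against 474.1 and 466.8 in wild type replicates 1 and 2 and 10.7 in wild type replicate 3. Deficient replicate 1 also held Xist, the transcript of the inactive X chromosome, at 396.3, so it carried transcripts typical of both sexes. Whether its RNA came from 1 mouse was not tested, which bears on each n of 3 for deficient muscle. The summed signal of 10 hair follicle and epidermis genes was 225.8 to 384.7 in deficient libraries, and 2279.9, 1230.6 and 296.7 in wild type replicates 1, 2 and 3. For the beta actin control probe sets, the ratio of 5 prime to 3 prime signal was 0.510 to 0.819 in deficient and 1.04 to 1.15 in wild type libraries.

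The comparison asks how these markers differ between muscle deficient in the laminin alpha 2 chain and wild type muscle. The PDGF receptor genes and the protease gene Fap had the highest fold changes, between 1.56 and 1.90 times the wild type mean. Those of Cd34, Dpt and Acta2 lay nearer to 1. All 9 genes passed the filter on dim probe sets. By limma 0 of the 9 passed an adjusted p under 0.05, a threshold that 2.76% of 13113 genes tested passed. At an unadjusted p under 0.05 there were 3 of 9, Pdgfra, Pdgfrb and Fap, against 18.9% of all genes. The fold change was positive for 7 of the 9, against 52.6% of all genes, with a median of 0.31 over the 9 and 0.02 over all genes. Read probe set by probe set, 14 of the 17 passed the filter and 0 of these 14 were called by limma, where 1.42% of 27022 probe sets were. At an unadjusted p under 0.05 there were 4 of the 14, against 16.3% of all probe sets. In bulk muscle, a change in the number of cells of a type and a change in RNA per cell cannot be told apart.

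**Figure D1:**
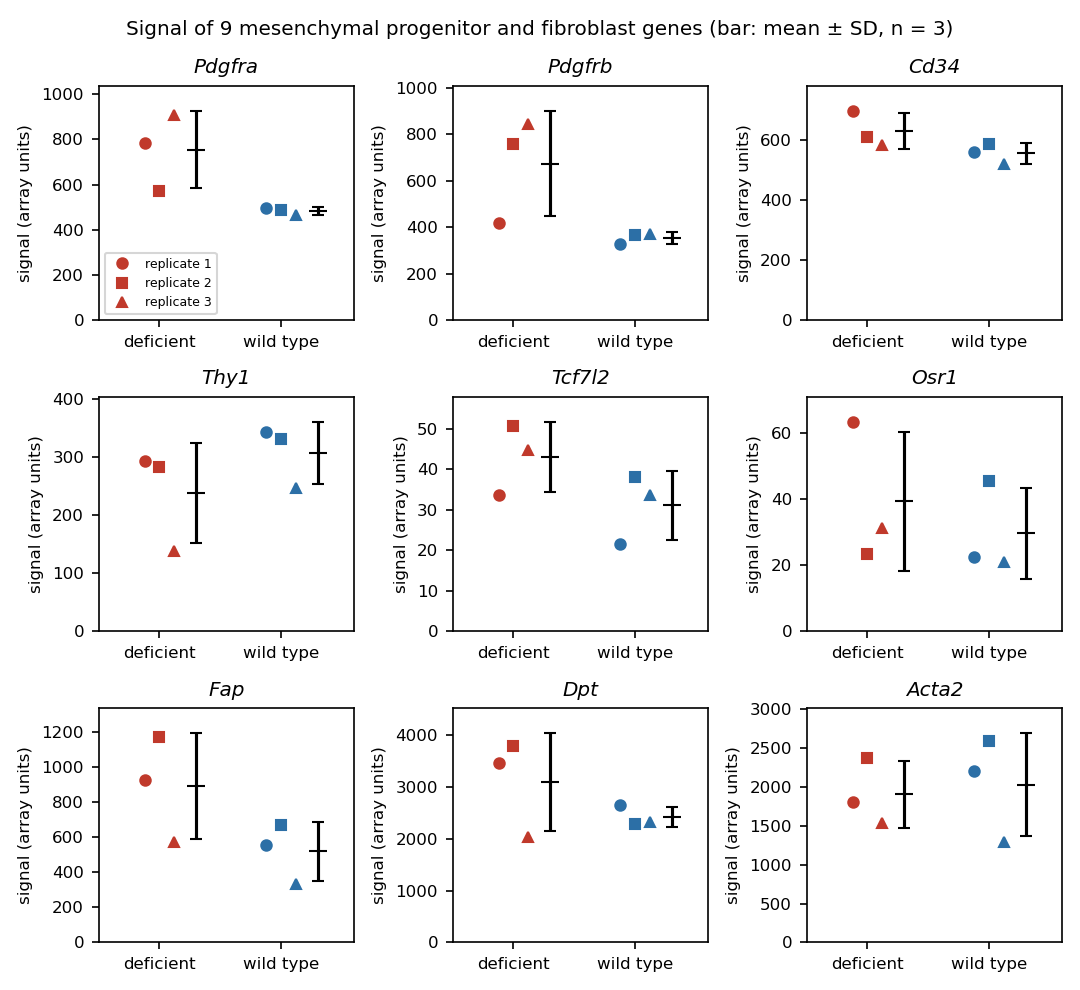
Signal (linear array units, axes from 0) of each gene's brightest probe set in 3 deficient libraries (left, red) and 3 wild type libraries (right, blue), with symbols for the replicate number and black bars for the mean ± SD. Only the Pdgfra and Pdgfrb panels show groups that do not overlap.

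Pdgfra and Pdgfrb encode the receptor tyrosine kinases for platelet-derived growth factors, which drive growth and migration of mesenchymal cells. Pdgfra, the receptor that defines fibro-adipogenic progenitors in mouse muscle, read 783.1, 572.4 and 908.9 in the deficient libraries and 498.1, 487.9 and 465.8 in the wild type libraries. Every deficient library was above every wild type library, and the wild type libraries lay within 1.07-fold of each other. The mean was 755 ± 170.0 in deficient and 484 ± 16.5 in wild type muscle (SD, n = 3 each). The log2 fold change of 0.60 (SE 0.199, 95% interval 0.15 to 1.05) had a limma adjusted p of 0.143. The other probe sets of Pdgfra differed in sign. One, 1421916_at, read 69.8, 60.4 and 53.9 in deficient and 56.2, 122.7 and 90.1 in wild type libraries, with a fold change of the opposite sign, -0.40 on the log2 scale. The other, 1438946_at, read 42.7, 18.6 and 129.1 in deficient and 26.1, 27.6 and 28.9 in wild type libraries. Its log2 fold change was 0.61 (SE 0.436, limma adjusted p = 0.522). Deficient replicate 3 was by far the highest, and deficient replicate 2 lay below all wild type libraries. With the mean of the Pdgfra probe sets in place of the brightest, the log2 fold change was 0.27 and the limma adjusted p 0.589.

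Pdgfrb, which also marks pericytes, the mural cells of small vessels, read 418.3, 758.9 and 846.1 in deficient libraries and 327.2, 367.5 and 370.6 in wild type libraries. The groups did not overlap, although deficient replicate 1 lay near the wild type libraries. Its mean was 674 ± 226 in deficient and 355 ± 24.2 in wild type muscle (SD, n = 3 each), a log2 fold change of 0.84 (SE 0.256, 95% interval 0.26 to 1.41, limma adjusted p = 0.118). Without deficient replicate 1 the log2 fold change was 1.14 and the limma adjusted p 0.0344, in a fit that called 1.16% of all genes, and without deficient replicate 3 the log2 fold change was 0.65 (limma adjusted p = 0.168). The dimmer probe set of Pdgfrb pointed the same way, with 155.5, 189.2 and 193.5 in deficient and 137.6, 95.9 and 135.7 in wild type libraries, again without overlap. Pdgfra and Pdgfrb were thus 2 of the 9 genes whose groups did not overlap, both higher, as held for 24.7% of all genes in either direction and 12.3% in this one. Of 9 other pericyte genes tested, 6 had a negative and 3 a positive fold change, and 0 passed by limma, with 3 at an unadjusted p under 0.05. Their summed signal was 4789.1 to 6433.8 in deficient and 6829.5 to 7212.5 in wild type libraries, without overlap, and most of it came from Rgs5 and Abcc9. Rgs5, a regulator of G protein signalling in pericytes, averaged 3529 ± 502 in deficient and 4447 ± 65.2 in wild type muscle (SD, n = 3 each; limma adjusted p = 0.233). Abcc9, a subunit of a potassium channel, averaged 1207 ± 467 in deficient and 1652.5 ± 176 in wild type muscle, with overlap. Ndufa4l2 had 67.7 ± 27.0 in deficient and 152 ± 15.0 in wild type muscle (limma adjusted p = 0.0689). Cspg4, the NG2 proteoglycan of pericytes, went the other way with overlap, at 104 ± 26.7 in deficient and 70.3 ± 16.2 in wild type muscle (log2 fold change 0.47, limma adjusted p = 0.326), and Notch3 and Cox4i2 had values of 0.10 and 0.16 on that scale.

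Of 8 genes of ligands and relatives of these receptors, a list that also holds Plat, 0 passed by limma, with a median log2 fold change of 0.07. At an unadjusted p under 0.05 there were 2, Plat and Csf1r, and Csf1r is also counted among the macrophage genes below. The ligand genes Pdgfa and Pdgfb overlapped between the groups, at 130 ± 12.0 and 249 ± 25.2 in deficient muscle and at 116 ± 20.5 and 274 ± 66.6 in wild type muscle (SD, n = 3 each). Plat encodes tissue plasminogen activator, which also cleaves PDGF-C into its active form. It read 344.3, 288.4 and 196.0 in deficient and 123.8, 158.7 and 118.8 in wild type libraries, without overlap (log2 fold change 0.94, SE 0.235, limma adjusted p = 0.0688). Pdgfc itself had 183.2, 111.1 and 86.1 in deficient and 90.2, 80.9 and 66.6 in wild type libraries, where deficient replicate 1 was high and deficient replicate 3 lay inside the wild type range (limma adjusted p = 0.306).

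**Figure D2:**
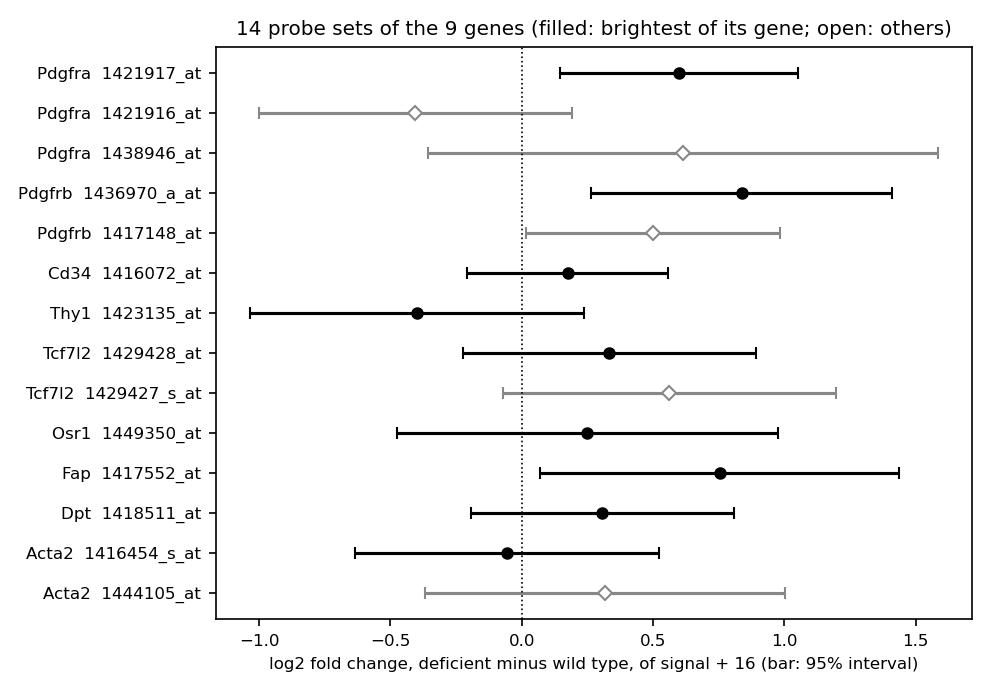
Log2 fold change of signal + 16, deficient minus wild type, of the 14 probe sets of the 9 genes that passed the filter, with 95% intervals from the fit over all probe sets (filled circles, the brightest probe set of each gene; open diamonds, its others). The intervals of 4 lie above 0, 1 of Pdgfra, both of Pdgfrb and that of Fap, and 1421916_at of Pdgfra lies left of 0 with an interval that spans it.

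Among the surface markers, Cd34 is a sialomucin of progenitors that endothelial and satellite cells carry as well. It read 695.9, 609.4 and 583.5 in deficient libraries and 559.4, 586.7 and 519.4 in wild type libraries. These are the narrowest spreads among the 9 genes in deficient libraries, within 1.19-fold, and the groups overlapped by 1 library each. The log2 fold change was 0.17 (SE 0.165, limma adjusted p = 0.615), and its 95% interval of -0.20 to 0.54 holds no 2-fold difference in either direction. Endothelial genes had a median log2 fold change of -0.19, and 0 of 10 passed by limma, with 1 at an unadjusted p under 0.05. Their summed signal overlapped, from 1958.5 to 2691.0 in deficient and from 2133.3 to 3135.7 in wild type libraries. Satellite cell and myoblast genes had a positive fold change in 6 of 7 tested, with a median of 0.38 on the log2 scale, and 0 passed by limma. Among these, Pax7 averaged 54.6 ± 12.4 in deficient and 50.2 ± 0.666 in wild type muscle (SD, n = 3 each; limma adjusted p = 0.887).

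Thy1, a glycolipid-anchored surface protein of fibroblasts, T cells and neurons, was 1 of the 2 genes with a negative fold change. It read 294.1, 282.8 and 139.4 in deficient libraries and 344.0, 332.6 and 247.0 in wild type libraries. Replicate 3 was lowest in each group, and deficient replicates 1 and 2 lay inside the wild type range. The log2 fold change was -0.40 (SE 0.282, 95% interval -1.03 to 0.23, limma adjusted p = 0.483), and it ran from -0.57 without deficient replicate 1 to -0.08 without deficient replicate 3. Genes of T and NK lymphocytes had low signal, with a summed signal of 8 genes of 176.3 to 242.5 in deficient and 240.9 to 268.2 in wild type libraries. Of 6 tested, 5 had a negative fold change and 0 passed by limma, also 0 at an unadjusted p under 0.05. The part of lymphocytes in the Thy1 signal was not tested.

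Ly6a belongs to a family of small anchored surface proteins, of which 5 other genes were tested. All 5 had a negative fold change, and 1 fell, Ly6d, a gene of keratinocytes and early B cells. It read 35.6, 25.1 and 35.3 in deficient and 93.3, 111.1 and 74.5 in wild type libraries (log2 fold change -1.18, SE 0.218, limma adjusted p = 0.0265). The summed hair follicle signal was high in wild type replicates 1 and 2, and its part in the Ly6d difference was not tested. Ly6e, another relative, had 749.3, 682.2 and 633.7 in deficient and 1038.7, 801.9 and 797.4 in wild type libraries, without overlap (limma adjusted p = 0.334). These values say nothing of Ly6a itself.

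Both transcription factor genes had low signal. Tcf7l2 encodes the Wnt-responsive factor TCF4, which marks connective tissue fibroblasts of limb muscle. Its brightest probe set read 33.8, 50.7 and 44.8 in deficient and 21.5, 38.2 and 33.6 in wild type libraries, with overlap (log2 fold change 0.33, SE 0.240, limma adjusted p = 0.491). The next, 1429427_s_at, read 23.1, 41.9 and 57.3 in deficient and 16.6, 25.0 and 22.6 in wild type libraries. Both probe sets were thus lowest in replicate 1 of each group. The remaining 2 probe sets were below the filter, with signals of 2.2 to 18.9 in deficient and 1.6 to 5.9 in wild type libraries. Relatives and Wnt targets gave no call either, with 0 of 7 tested passing by limma, also 0 at an unadjusted p under 0.05, and a median log2 fold change of -0.02. Axin2, a direct Wnt target, averaged 64.2 ± 29.2 in deficient and 80.9 ± 8.16 in wild type muscle (SD, n = 3 each). Osr1, a zinc finger factor of developmental and injury-activated progenitors, read 63.2, 23.4 and 31.2 in deficient and 22.4, 45.4 and 21.1 in wild type libraries. Each group had 1 high library, deficient replicate 1 and wild type replicate 2, and the log2 fold change of 0.25 (SE 0.322, limma adjusted p = 0.724) ran from -0.042 without deficient replicate 1 to 0.48 without wild type replicate 2.

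Fap encodes fibroblast activation protein, a surface protease of activated fibroblasts that muscle progenitors also carry. It read 925.3, 1172.2 and 570.5 in deficient libraries and 555.7, 666.6 and 334.3 in wild type libraries. Replicate 2 was highest and replicate 3 lowest in each group, so that deficient replicate 3 lay between the wild type libraries. The mean was 889 ± 302 in deficient and 519 ± 169 in wild type muscle (SD, n = 3 each), a log2 fold change of 0.75 (SE 0.309, 95% interval 0.06 to 1.45, limma adjusted p = 0.225). With 1 library left out it ran from 0.48 without wild type replicate 3 (limma adjusted p = 0.471) to 1.04 without deficient replicate 3 (0.0639), and it was 0.53 without deficient replicate 2.

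Dpt encodes dermatopontin, a small matrix protein that binds decorin and that fibroblasts of many tissues share. Its signal was 3468.2, 3798.2 and 2026.6 in deficient libraries and 2644.3, 2286.5 and 2323.8 in wild type libraries. Deficient replicates 1 and 2 were above all wild type libraries, and deficient replicate 3 was below them all. The mean was 3098 ± 942 in deficient and 2418 ± 197 in wild type muscle (SD, n = 3 each), with a log2 fold change of 0.31 (SE 0.226, 95% interval -0.20 to 0.81, limma adjusted p = 0.500). With 1 library left out it ran from 0.14 without deficient replicate 2 (limma adjusted p = 0.832) to 0.59 without deficient replicate 3 (0.0527), and it was 0.20 without deficient replicate 1.

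Acta2 encodes smooth muscle alpha actin, the marker of myofibroblasts, which vascular smooth muscle expresses as well. Its brightest probe set read 1802.7, 2377.7 and 1537.1 in deficient libraries and 2209.2, 2587.2 and 1297.7 in wild type libraries. The deficient libraries lay wholly within the wild type range. The log2 fold change was -0.06 (SE 0.262, 95% interval -0.64 to 0.53, limma adjusted p = 0.937), and its sign turned to 0.019 under quantile normalization. The s in the name of this probe set, 1416454_s_at, marks probes that can match more than 1 transcript, so other actins may add to it. The dimmer probe set that passed the filter, 1444105_at, read 23.5, 30.0 and 34.9 in deficient and 20.6, 36.2 and 9.0 in wild type libraries. The third lay below the filter, at 6.8 to 21.2 in deficient and 1.6 to 14.4 in wild type libraries.

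Of 14 tested genes of myofibroblasts and smooth muscle contraction besides Acta2, 0 passed by limma, with 5 at an unadjusted p under 0.05. Their median log2 fold change was -0.13, with 6 positive and 8 negative. Genes of the smooth muscle apparatus lay on both sides of 0, more of them below it. Smtn, which encodes smoothelin, read 264.7, 366.9 and 196.9 in deficient and 569.4, 415.8 and 470.0 in wild type libraries, without overlap (log2 fold change -0.81, SE 0.240, limma adjusted p = 0.109). Myl9, a regulatory myosin light chain, averaged 609 ± 211 in deficient and 1197 ± 576 in wild type muscle (SD, n = 3 each; limma adjusted p = 0.231). Cnn1, Myh11 and Actg2 had log2 fold changes of -0.27, -0.11 and -0.54, with overlap. For Synpo2, Tpm1 and Tpm2 they were -0.15, -0.18 and -0.18, also with overlap. Cald1, which encodes the actin-binding caldesmon, read 1034.4, 997.1 and 761.7 in deficient and 667.1, 673.7 and 665.6 in wild type libraries, higher without overlap (log2 fold change 0.46, SE 0.174, limma adjusted p = 0.196). The log2 fold changes of Tagln (transgelin) and Palld (palladin) were 0.31 and 0.26, and their groups overlapped. Genes of matrix-producing fibroblasts also had positive values. Cthrc1, a secreted protein of activated fibroblasts, read 526.3, 287.5 and 90.6 in deficient and 87.0, 184.5 and 26.8 in wild type libraries (limma adjusted p = 0.256). Cdh11, a cadherin of mesenchymal cells, had 204.7, 174.0 and 130.8 in deficient and 81.6, 144.3 and 56.4 in wild type libraries (limma adjusted p = 0.178). In both of these genes replicate 3 was lowest in each group.

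The libraries of each group differed in a patterned way. Replicate 3 was the lowest of its group in both groups for 4 of the 9 genes, Cd34, Thy1, Fap and Acta2, as it was for 19.5% of all genes tested. Pdgfra and Pdgfrb went otherwise, with deficient replicate 3 the highest deficient library. Deficient replicate 3 and wild type replicate 3 are the libraries without Y-linked transcripts, and wild type replicate 3 also lacked most of the hair follicle signal. Among libraries with Y-linked transcripts, the Fap difference was 0.76 on the log2 scale over 2 deficient and 2 wild type libraries. Between the 1 deficient and the 1 wild type library without them it was 0.74. Pdgfra gave 0.43 with and 0.94 without, and Pdgfrb 0.68 with and 1.16 without. Dpt and Acta2 had opposite signs in the 2 sets, at 0.56 and -0.21 with Y-linked transcripts and -0.20 and 0.24 without. In a fit that blocked on whether a library held Y-linked transcripts, 2 of the 9 genes rose, Fap (limma adjusted p = 0.0172) and Pdgfrb (0.0430), where 8.85% of all genes were called and 4.19% rose. Pdgfra had a limma adjusted p of 0.0638 in that fit.

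**Figure D3:**
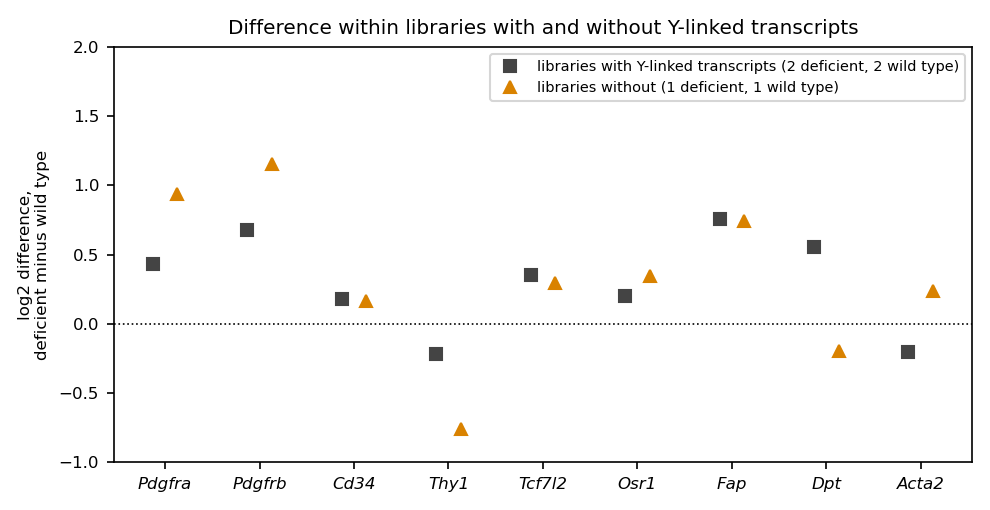
Difference on the log2(signal + 16) scale, deficient minus wild type, of each gene's brightest probe set, over the 2 deficient and 2 wild type libraries that hold Y-linked transcripts (grey squares) and the 1 deficient and 1 wild type library that lack them (orange triangles). The Fap and Cd34 values nearly coincide (0.76 and 0.74, 0.18 and 0.16), while Dpt and Acta2 lie on either side of 0.

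Other markers of mesenchymal progenitors and fibroblasts were read from 29 genes, of which 1 rose and 0 fell by limma, against 2.76% of all genes called. The gene that rose was S100a4, a calcium-binding protein of fibroblasts and macrophages, with 3320.4, 1976.1 and 1317.4 in deficient and 278.6, 327.5 and 231.6 in wild type libraries. A positive fold change was found for 21 of the 29, with a median of 0.25 on the log2 scale. After S100a4 the smallest p values belonged to Pdgfrl, Vim and Mfap5, in each of which the groups did not overlap. Pdgfrl, a relative of the PDGF receptors without a kinase domain, read 320.1, 275.7 and 202.0 in deficient and 152.2, 108.1 and 76.3 in wild type libraries (log2 fold change 1.16, SE 0.262, limma adjusted p = 0.0513). Vim, which encodes the intermediate filament vimentin, averaged 4410 ± 1667 in deficient and 2087 ± 372 in wild type muscle (SD, n = 3 each; limma adjusted p = 0.0881). Mfap5, a microfibril protein, averaged 1904 ± 717 in deficient and 813 ± 266 in wild type muscle (SD, n = 3 each; limma adjusted p = 0.0909). As with Fap, deficient replicate 3 was the lowest deficient library and wild type replicate 3 the lowest wild type library for all 4 genes. Without deficient replicate 3, 7 of the 29 were called, where 5.04% of all genes were. Genes that mark resting progenitors or universal fibroblasts were not uniformly higher. Dpp4, a surface peptidase, and Cd55, a complement regulator, had negative fold changes, and Pi16, a secreted protein of the same cells, a positive one of 0.37 (SE 0.318, limma adjusted p = 0.577). Dpp4 read 84.5, 89.5 and 35.2 in deficient and 107.6, 134.6 and 129.2 in wild type libraries, without overlap. Cxcl14 was lower without overlap too, at 276.9, 202.3 and 115.1 in deficient and 450.6, 308.3 and 292.5 in wild type libraries. Its log2 fold change was -0.83 (limma adjusted p = 0.176). Of the 29 genes, 4 were higher and 2 lower without overlap. Over all genes, 24.7% did not overlap in either direction, and 12.3% were higher without overlap.

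Markers of other cells were read beside these genes, in lists to be set against the 2.76% of all genes called. Macrophage genes had a positive fold change in 10 of 10, with 1 called, Mpeg1. At an unadjusted p under 0.05 by limma there were 8 of the 10, against 18.9% of all genes. Their summed signal was 13227.9, 9874.2 and 4673.4 in deficient replicates 1, 2 and 3 and 4651.5, 3804.4 and 3067.6 in the wild type replicates, so it too was lowest in replicate 3 of each group. Tenocyte genes summed to 7180.7, 7074.3 and 3229.5 in deficient and 3962.6, 4371.9 and 3065.8 in wild type libraries, in the same order of replicate 3. Their median log2 fold change was -0.16, with 3 positive and 4 negative. Of the 7 tenocyte genes 1 rose, Thbs4, which encodes thrombospondin 4 (3710.9, 3606.8 and 2040.2 in deficient and 869.5, 1089.5 and 623.7 in wild type libraries, limma adjusted p = 0.0119). Thbs4 had the highest signal of the 7 in every deficient library, and so weighed most on the tenocyte sum there. The tendon factor gene Scx and tenomodulin gene Tnmd did not pass (limma adjusted p = 0.256 and 0.866). Kera was lower, with overlap (log2 fold change -1.19, limma adjusted p = 0.226). Of 6 adipocyte genes, the other fate of these progenitors, 0 passed by limma, with 1 at an unadjusted p under 0.05 and a median log2 fold change of 0.06. That 1 was Lep, which was lower, with 2.6, 40.6 and 8.6 in deficient and 59.3, 40.5 and 63.2 in wild type libraries (limma adjusted p = 0.126). Adipoq, which encodes adiponectin, read 4102.9, 4154.8 and 1480.5 in deficient and 3503.3, 2924.7 and 4027.9 in wild type libraries. Deficient replicate 3 was low for it as well, while wild type replicate 3 was not. Schwann cell genes overlapped in sum, at 3591.0 to 4657.2 in deficient and 2250.9 to 3909.5 in wild type libraries. None of the genes in these lists was listed at 0 in any library. The part of these cells, of the hair follicle signal and of the lower actin control ratio in the values of the 9 genes was not tested.

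**Figure D4:**
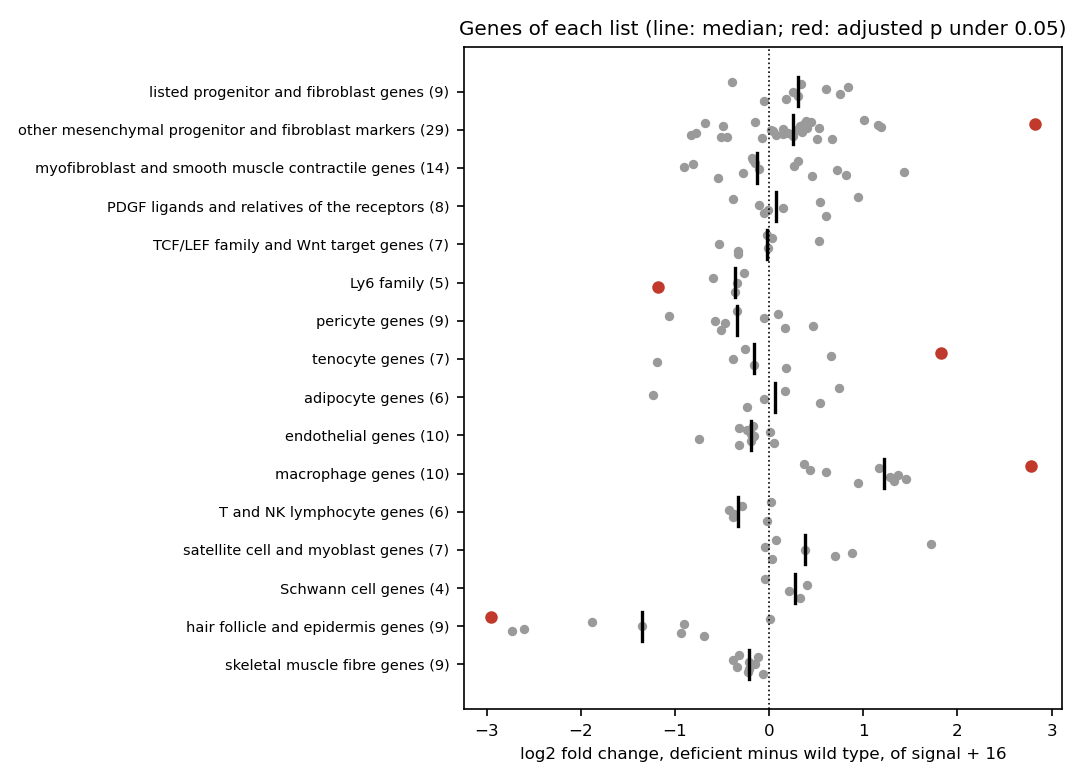
Log2 fold change of signal + 16, deficient minus wild type, of the tested genes of each list (number in brackets), with 1 point per gene, black lines for list medians and red points for genes with an adjusted p under 0.05. The 9 listed genes hold no red point and have a median of 0.31. List medians run from 1.22 for macrophage genes to -1.35 for hair follicle and epidermis genes. Satellite cell and myoblast genes lie at 0.38, the other progenitor and fibroblast markers at 0.25 and pericyte genes at -0.34.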

How the data were processed

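Total RNA was extracted with TRIzol and RNeasy and biotinylated cRNA made from 1 ug, per the labels' protocols. Each deposited value is the intensity of 1 probe set on 1 array, on a linear scale. The sources used here do not give the authors' algorithm. Leaving out the lowest and highest 2% of values, every array had a mean of 100.0, which is a common scale.

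Groups and replicate numbers came from the sample titles. Of 45101 probe sets, 34945 had 1 gene symbol, 932 several and 9160 none, and 64 were controls. Symbols were updated through Entrez identifiers to RefSeq GRCm38.p6. The analysis used log2(signal + 16). On it the medians of the arrays lay within 0.226, and nothing was normalized further. Probe sets below the 40th percentile of the mean log2 value, a signal of 13.9, were left out. The brightest probe set with 1 symbol stood for each gene, and a second fit took all 27022 probe sets that passed. The test was limma 3.58.1 (R 4.3.3, eBayes with an intensity trend, two-sided), and adjusted p values (Benjamini-Hochberg) cover all genes or all probe sets. The limma fit was tested on simulated data with independent genes, 1 probe set a gene and the fitted variances, a simulation eased after 2 harder designs recovered fewer of the changed genes.

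The members and all lists were chosen with earlier results of these data known. The genes named were the members, Lama2, up to 4 genes of each list with the smallest p, called list genes and the first 3 markers of each cell type list. Other genes named were chosen after their values were seen, and some that the rule names are given in list sums only. The written design words the filter as a percentile of the mean signal. That filter was run as an alternative added after seeing the data. Other alternatives were other normalizations, filters, pseudocounts and priors, the mean of a gene's probe sets, blocks for the replicate number and for Y-linked transcripts (an Eif2s3y signal of over 100), and libraries left out.

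The replicate numbers were checked for pairing by the correlation of deviations from the group means, which was 0.150, 0.0682 and 0.301 for replicates 1, 2 and 3. Between unlike numbers the correlation ran from -0.292 to 0.201, the latter for deficient replicate 1 with wild type replicate 2. The replicate numbers were not treated as pairs.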

Additional observations from a re-analysis of the deposited data

How the results depend on the processing

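The count of called members among the 9 was 0, also with arrays centred or quantile normalized, with each other filter, pseudocount and prior, and with the mean of a gene's probe sets. The filter at the 60th percentile left 7 of the 9 members and 10 of their 14 probe sets to test. The count of called members was 2 with a replicate block and 2 with the block for Y-linked transcripts, Fap and Pdgfrb in both, and ran from 0 to 1 with 1 library left out. Among the members' 14 probe sets the count of 0 became 1 with either the replicate block or the block for Y-linked transcripts (that of Fap) and ran from 0 to 1 with 1 library left out. The check of pairing did not find that the replicate block pairs the samples. Replicate 3 is also the replicate without Y-linked transcripts in both groups, so these blocks overlap. The count of 1 among 29 other progenitor genes was 2 with the filter at the 60th percentile, 2 with a pseudocount of 64, 2 with a robust prior and 2 with the mean of a gene's probe sets. It was 5 with the replicate block and 5 with the block for Y-linked transcripts, where 6.59% and 8.85% of all genes were called. These 5 were Cxcl14, Mfap5, Pdgfrl, S100a4 and Vim in both, and of them Cxcl14 had a negative fold change. With 1 library left out the count ran from 1 to 7. With the filter on the mean signal, added after seeing the data, the counts were 0 of 9 members, 0 of 14 probe sets and 1 of 29 genes, and 353 over all genes. Of 160 values of single members under alternatives, 149 kept sign and side of the threshold and 5 became calls. The sign turned in 6, for Acta2 under quantile normalization (0.019), with the mean of its probe sets (0.13) and with 1 library left out (-0.35 to 0.15), and for Osr1 with 1 library left out (-0.042 to 0.48). Without wild type replicates 1 and 2 together, a fit with 1 wild type library and no test, the log2 fold change of Acta2 was 0.53 and those of Fap and Osr1 were 1.31 and 0.51. The causes were not tested. Over all genes the count of calls was 362, and 864 and 1160 with these blocks.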

Other observations

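Genes of satellite cells and myoblasts, the cells that fibro-adipogenic progenitors are known to support, had a positive fold change in 6 of 7 tested, with a median of 0.38 on the log2 scale. By limma 0 of the 7 passed, with 3 at an unadjusted p under 0.05. Myog, the factor of differentiating myoblasts, read 597.9, 794.5 and 459.4 in deficient and 269.1, 308.8 and 55.2 in wild type libraries, without overlap (limma adjusted p = 0.103). Megf10, a receptor of satellite cells, had 73.2, 116.9 and 99.7 in deficient and 51.6, 35.8 and 46.2 in wild type libraries, also without overlap (limma adjusted p = 0.0706). Myf5 was higher without overlap too, at 66.7, 82.9 and 86.3 in deficient and 46.1, 59.2 and 65.6 in wild type libraries (limma adjusted p = 0.357). Pax7, Myod1 and Calcr overlapped between the groups. In Myog, as in Fap, replicate 3 was the lowest of each group and replicate 2 the highest.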
